A study of Zea mays with 12 samples.

Results

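The maize gene glossy1 (gl1, LOC542154) was measured by 3 probe sets among the 17621 tested on the Affymetrix GeneChip Maize Genome Array, and is 1 of the 1108 genes that exactly 1 platform symbol names there. The probe sets were found as all those whose platform symbol, RefSeq symbol or RefSeq synonym was gl1, and all 3 matched through the RefSeq synonym of LOC542154. The gene was chosen by its log2 levels in acid and control soil in the line Cat100-6, so its values in that comparison, and in those that share its arrays, are given as a description with no test. The difference between soils in the other line, S1587-17, is computed from other arrays and was tested, although its standard error and p come from a fit of all 12 arrays, those that chose the gene included.

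Leaves came from seedlings of 2 tropical maize inbred lines, germinated on paper for 2 days and then kept for 3 days in bags of soil with 20 seeds per bag. The 4 groups of 3 arrays were S1587-17 (aluminium-sensitive) in acid soil, S1587-17 in control soil, Cat100-6 (aluminium-tolerant) in acid soil and Cat100-6 in control soil. The acid soil was an aluminium-containing Dark Red Latossol of pH 4.1 and the control soil was the same soil treated with calcium hydroxide, at pH 5.5, with aluminium undetectable. Both soils received the same fertilizer, and the acid soil also received calcium chloride to match the added calcium. Each line stands for its tolerance class alone, and the samples' description field writes root leaves where the tissue label gives leaves. The labels name the samples biological replicates without saying whether they came from separate bags, so a p-value here covers no more than the variation among these arrays.

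Maize leaves are covered by a cuticle whose outer wax limits water loss and sheds water, and seedling leaves carry dense wax crystals that adult leaves lack. The glossy loci were found as mutants whose seedling leaves lose this coating and look shiny. In the epidermis, fatty acids made in the plastid are lengthened at the endoplasmic reticulum and turned into aldehydes, alcohols, alkanes and esters before export to the surface. The protein of gl1 is a membrane protein related to CER3 (WAX2) of Arabidopsis thaliana, which acts in alkane formation there, and the gene is unrelated to the trichome gene GL1 (GLABRA1) of that species.

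In leaves of Cat100-6, gl1 was lower in acid soil at all 3 probe sets, with log2 RMA differences between -2.64 and -2.09. At the probe set with the highest signal, called the brightest here, the log2 level was 8.49, 7.33 and 9.51 in acid soil replicates 1, 2 and 3, against 10.88, 11.13 and 10.91 in control soil replicates 1, 2 and 3. Every acid soil array lay below every control soil array, and the acid soil arrays were spread far more widely. The means were 8.44 ± 1.09 in acid soil and 10.97 ± 0.13 in control soil (SD, n = 3 each), a log2 difference of -2.53 ± 0.45 (SE) or 5.77-fold.

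The other probe sets, both designed on a second GenBank record of the gene, gave the same picture. The one whose name ends in _a_at, the suffix that Affymetrix uses for probes shared by transcripts of a gene, read 7.52, 6.91 and 8.45 in acid soil, against 9.54, 9.83 and 9.78 in control soil. Its log2 difference was -2.09 ± 0.37 (SE), or 4.26-fold. The dimmest probe set read 5.91, 4.99 and 6.54 in acid soil, against 8.26, 8.73 and 8.37 in control soil, a log2 difference of -2.64 ± 0.40 (SE) or 6.23-fold. At each probe set replicate 2 was the lowest and replicate 3 the highest of the acid soil arrays, and the soils did not overlap. Over all tested probe sets of this contrast, arrays in acid soil lay wholly below those in control soil at 40.7%, and 31.5% passed limma as lower (23.5% as higher). These shares are background to the choice of the gene, and nothing is read from them.

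**Figure D1:**
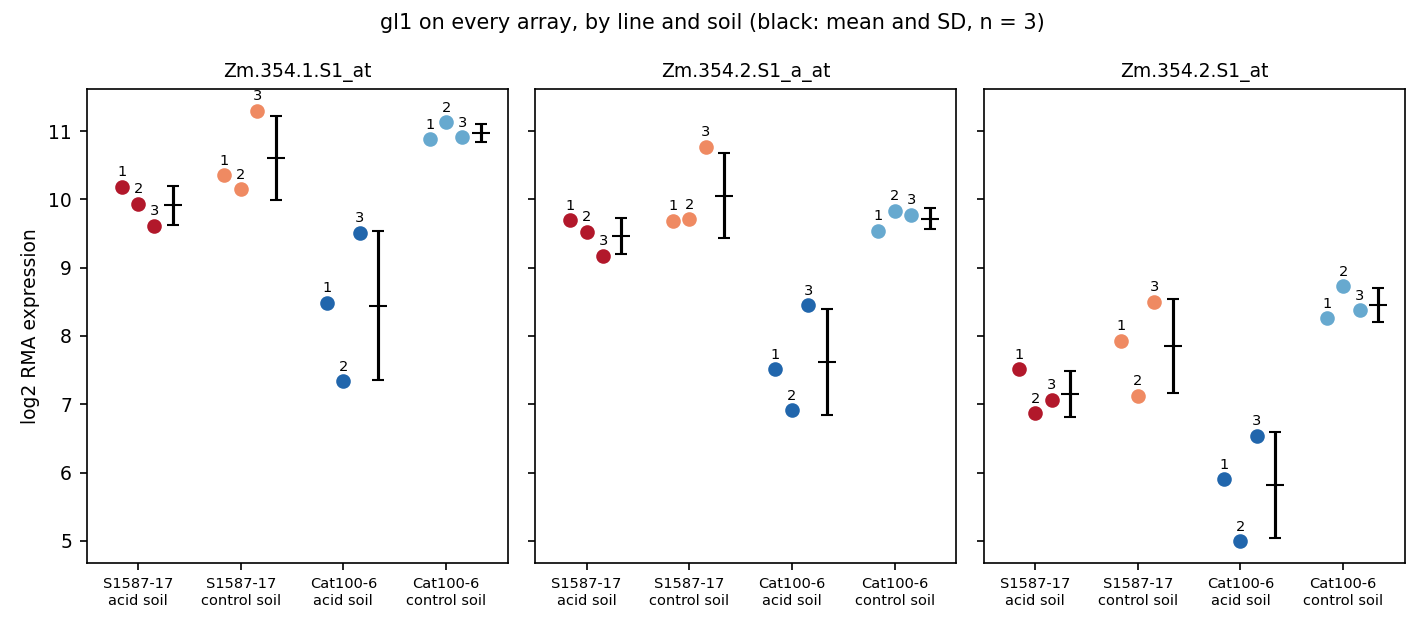
Log2 RMA expression (vertical axis) of gl1 on each array, a panel for each of its 3 probe sets (from the left the brightest, the _a_at and the dimmest), with groups along the horizontal axis and replicate numbers above the points. Black marks are means with SD (n = 3). Acid soil arrays of Cat100-6 are the lowest in each panel, and replicate 3 of S1587-17 in control soil is the highest of its group.

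The spread of gl1 among the Cat100-6 acid soil arrays was large even for that group. Its SD of 1.09 at the brightest probe set exceeded that of 99.9% of all probe sets, whose median SD there was 0.16, and the other probe sets exceeded 99.2% each. The SDs of the 3 gl1 probe sets exceeded those of 96.1% to 98.0% of probe sets in S1587-17 acid soil, 91.5% to 93.8% in S1587-17 control soil and 64.5% to 91.5% in Cat100-6 control soil, so a wide spread was not limited to Cat100-6 acid soil. The acid soil arrays also differed in how close they were to Cat100-6 control soil over all probe sets. Replicate 2, lowest in gl1, correlated with the control arrays at 0.914 to 0.919, replicate 1 at 0.945 to 0.950 and replicate 3, highest in gl1, at 0.959 to 0.964. In leaf tissue measured as a whole, fewer epidermal cells and less RNA per cell cannot be told apart.

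Values outside the gene moved with the soils of Cat100-6 as well. The mean of 9 spiked hybridization controls was 9.98, 9.38 and 9.78 on the acid soil arrays of replicates 1, 2 and 3, against 10.10, 10.45 and 10.08 on the control soil arrays, whereas it lay between 10.16 and 10.32 on all S1587-17 arrays. After the arrays were scaled so that these controls had equal means, the difference of gl1 in Cat100-6 was -2.03 at the brightest probe set, while the median over all probe sets was 0.36 with this scaling and -0.14 without it. The scaling shifts the difference of every probe set by the same amount. The acid soil values were then 8.59, 8.04 and 9.82, against 10.87, 10.77 and 10.92 in control soil, still without overlap. For 5 control genes, the mean of the 3′ minus the 5′ signal was 0.71 ± 0.12 in acid soil and 0.81 ± 0.15 in control soil in S1587-17, and 1.35 ± 0.05 in acid soil and 1.58 ± 0.10 in control soil in Cat100-6 (SD, n = 3). This value was thus higher in Cat100-6 than in S1587-17 in both soils. Its part in the differences between soils or between lines was not tested.

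Whether gl1 also differed between the soils in the sensitive line was then tested. In S1587-17, gl1 was lower in acid soil on average, but the arrays of the 2 soils overlapped at each probe set and no difference passed. The brightest probe set read 10.18, 9.93 and 9.62 in acid soil, against 10.35, 10.15 and 11.30 in control soil, with means of 9.91 ± 0.28 and 10.60 ± 0.61 (SD, n = 3). The log2 difference was -0.69 ± 0.45 (SE, limma adjusted p = 0.874, unadjusted p = 0.154). Fitted on the S1587-17 arrays alone, the same difference had an SE of 0.31 and an adjusted p of 0.935 in limma.

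The other probe sets gave -0.59 ± 0.37 and -0.70 ± 0.40 (SE), each with an adjusted p of 0.874 in limma (unadjusted p = 0.136 and 0.102). The adjustment gave this same value to other probe sets of differing unadjusted p, so it does not rank the gl1 probe sets. The _a_at probe set read 9.70, 9.53 and 9.17 in acid soil, against 9.69, 9.71 and 10.77 in control soil. The dimmest probe set read 7.52, 6.87 and 7.07 in acid soil, against 7.93, 7.12 and 8.50 in control soil. Of all probe sets in this comparison, 0 passed limma (0%), 613 had an unadjusted p under 0.05, and 4.68% had acid soil arrays wholly below the control soil arrays.

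Control soil replicate 3 of S1587-17 had the highest gl1 level of its group and stood apart over the whole array. At the brightest probe set it read 11.30, above both others of its group (10.35 and 10.15) and above every Cat100-6 control array. Over all probe sets it correlated with its group-mates at 0.963 to 0.967, against 0.995 between them. It correlated with Cat100-6 control soil at 0.950 to 0.953, against 0.902 to 0.914 for its group-mates. Without this array, the S1587-17 differences between acid and control soil were -0.34 ± 0.44, -0.23 ± 0.33 and -0.38 ± 0.38 (SE) at the probe sets from brightest to dimmest, with an adjusted p of 1.00 in limma.

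The lines were then compared within each soil. In acid soil gl1 was higher in S1587-17 than in Cat100-6 at all 3 probe sets, without overlap of the arrays, which 22.8% of all probe sets also showed. The log2 differences were 1.47 ± 0.45, 1.84 ± 0.37 and 1.34 ± 0.40 (SE) from the brightest to the dimmest probe set, or 2.76-fold, 3.58-fold and 2.52-fold. At the brightest, Cat100-6 replicate 3 (9.51) came close to S1587-17 replicate 3 (9.62), and without Cat100-6 acid soil replicate 2 the difference was 0.91.

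In control soil the probe sets did not give the same direction between lines. S1587-17 minus Cat100-6 was -0.37 ± 0.45 at the brightest probe set, 0.34 ± 0.37 at the _a_at probe set and -0.60 ± 0.40 at the dimmest (SE), each smaller than the SD of the S1587-17 control arrays (0.61, 0.62 and 0.69). The arrays of the lines overlapped at each of them. Without S1587-17 control soil replicate 3 the differences were -0.72, -0.02 and -0.93. Without replicate 2 of that group the difference at the brightest probe set was -0.15.

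The response of S1587-17 minus that of Cat100-6 was 1.84 ± 0.64, 1.50 ± 0.52 and 1.94 ± 0.56 (SE) from the brightest to the dimmest probe set. It contains the contrast that chose the gene and was therefore not tested for gl1. Over all probe sets 14.7% passed limma for this difference. Ordered by mean at the brightest probe set, gl1 was highest in Cat100-6 control soil (10.97), then in S1587-17 control soil (10.60), S1587-17 acid soil (9.91) and Cat100-6 acid soil (8.44). The arrays of Cat100-6 and S1587-17 in control soil overlapped, as did those of S1587-17 in acid and control soil. Those of Cat100-6 acid soil lay below the others at every probe set, although at the _a_at probe set S1587-17 control soil came first.

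**Figure D2:**
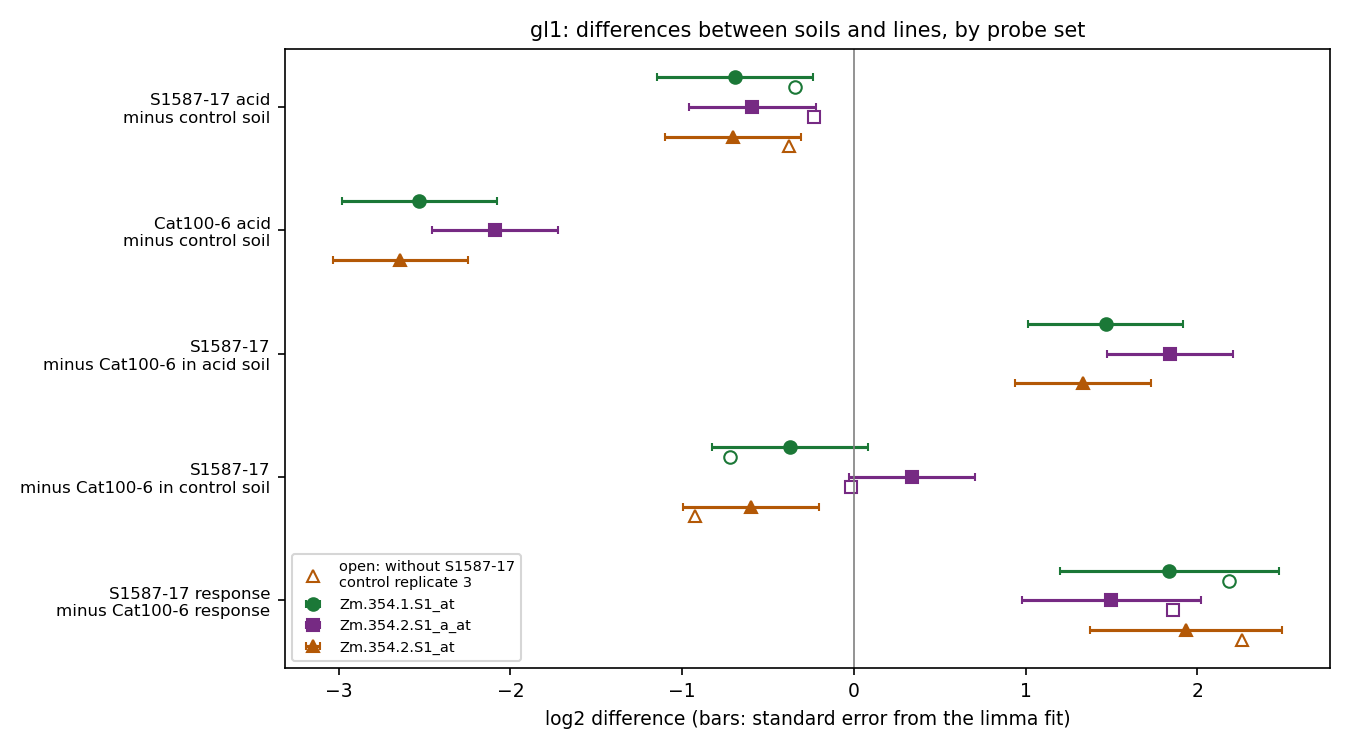
Log2 differences of gl1 (horizontal axis) for the acid soil responses, the line differences and the difference of responses (rows), by probe set (green the brightest, purple the _a_at, brown the dimmest), with standard errors as bars. Open symbols leave out S1587-17 control soil replicate 3. The Cat100-6 response lies between -2.64 and -2.09, and the line difference in control soil falls on both sides of 0.

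The 3 probe sets followed each other closely over the 12 arrays. Pearson's r was 0.948 and 0.976 between the brightest and the other probe sets and 0.902 between those. After each group's mean was subtracted, r was 0.969, 0.912 and 0.867, so that arrays of a group high in one probe set were high in the others as well. These points share the arrays and their scaling, and the r values are descriptions.

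Few named probe sets on this array were of other wax genes or of genes of fatty acids and lipid transfer. A list of wax, fatty acid and lipid transfer genes other than gl1, called the surface lipid list here, held 7 probe sets of 6 genes. The name does not mean that its fatty acid genes act in surface lipids alone. In Cat100-6, 4 of the 7 were lower in acid soil, 0 were higher and 3 did not pass, against 31.5% lower and 23.5% higher over all probe sets. All 4 were of fatty acid genes, and 0 of the 2 wax probe sets passed in either direction. The median of the whole list was -0.80, beside -0.14 over all. It was -0.87 for the 4 fatty acid probe sets and 0.10 for the 2 wax probe sets. In S1587-17, 0 of the 7 passed in limma, with a median of -0.32, beside -0.02 over all.

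Of the glossy genes besides gl1, gl8 encodes the ketoacyl reductase of the fatty acid elongation complex and gl15 an AP2-type transcription factor that keeps leaves in the juvenile, wax-bearing phase. The wax gene gl8 read 11.87, 11.23 and 11.83 in acid soil, against 12.15, 12.02 and 11.91 in control soil in Cat100-6. Its arrays did not overlap, but the difference of -0.38 ± 0.18 (SE) did not pass (limma adjusted p = 0.0957), and in S1587-17 it was -0.21 ± 0.18 (adjusted p = 0.874). The level of gl15 was 7.42, 7.73 and 7.04 in acid soil, against 6.88, 6.83 and 6.77 in control soil in Cat100-6, a difference of 0.57 ± 0.24 that did not pass (adjusted p = 0.0651). In S1587-17 the difference between soils was 0.00 ± 0.24. Between the lines in control soil, gl15 was higher in S1587-17, at 7.86 ± 0.56, than in Cat100-6, at 6.83 ± 0.06 (SD, n = 3), a log2 difference of 1.04 ± 0.24 (SE, adjusted p = 0.00414), where 23.2% of all probe sets passed as higher.

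The fatty acid genes of the list made up all 4 decreases in Cat100-6. Among them acc1, an acetyl-CoA carboxylase, which makes the malonyl-CoA used in fatty acid synthesis and elongation, fell at both of its probe sets, by 0.80 ± 0.20 and 0.85 ± 0.21 on the log2 scale (SE, adjusted p = 0.00604 and 0.00640). The desaturase genes fad8 and fad7, whose enzymes form trienoic fatty acids in plastids, fell by 1.19 ± 0.23 and 0.89 ± 0.18 (adjusted p = 0.00165 and 0.00217). For fad8 the arrays read 10.33, 9.77 and 10.43 in acid soil, against 11.28, 11.44 and 11.38 in control soil. Scaled to the spiked controls, fad8 still passed at -0.69, but fad7 (-0.39) and both acc1 probe sets (-0.30 and -0.35) did not. In S1587-17 these 4 probe sets differed by -0.36 to -0.32 and did not pass.

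Between the lines in control soil, the same 4 probe sets were lower in S1587-17, by 0.73 to 1.10 log2 units, where 28.2% of all probe sets passed as lower. The call for fad8 ended without S1587-17 control soil replicate 1 (-0.62) or replicate 2 (-0.66). The largest was fad7, at 10.18 ± 0.41 in S1587-17 and 11.28 ± 0.05 in Cat100-6 (SD, n = 3), a log2 difference of -1.10 ± 0.18 (SE, limma adjusted p = 0.000438). In acid soil only fad7 passed of the list (-0.55 ± 0.18, adjusted p = 0.0463), where 13.3% of all probe sets passed as lower and 10.6% as higher. This call ended in 11 of the 20 alternatives, among them a second quantile normalization and the subtraction of array medians. The phospholipid transfer protein gene plt2, whose family carries lipids in the epidermal wall, had group means of 13.03 to 13.28 and passed in no comparison.

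Genes of the epidermis and of leaf phase and form were listed next. Of 11 probe sets, gl15 among them, 2 were higher and 2 lower in acid soil in Cat100-6, where 23.5% of all probe sets passed as higher and 31.5% as lower, and 0 passed in S1587-17 in limma (0% over all). The homeodomain gene ocl1, expressed in the outer cell layer and shown in maize overexpression lines to change cuticle lipid genes, rose in acid soil in Cat100-6. It read 9.17, 8.94 and 8.74 in acid soil, against 7.97, 7.83 and 7.93 in control soil, a log2 difference of 1.04 ± 0.12 (SE, limma adjusted p = 0.000151). In S1587-17 it read 9.09, 9.04 and 8.86 in acid soil, against 9.26, 9.03 and 9.08 in control soil, a difference of -0.13 ± 0.12 (adjusted p = 0.874). The S1587-17 response minus the Cat100-6 response was -1.16 ± 0.17 (adjusted p = 0.00328), where 14.7% of all probe sets passed in either direction. In control soil ocl1 was higher in S1587-17, at 9.12 ± 0.12, than in Cat100-6, at 7.91 ± 0.07 (SD, n = 3, adjusted p = 1.81e-05).

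The receptor kinase gene cr4 of the epidermis rose by 0.40 ± 0.12 in Cat100-6 (SE, limma adjusted p = 0.0178). This call ended in 5 of 20 alternatives (adjusted p up to 0.0701), among them those without Cat100-6 acid soil replicate 2 and without control soil replicate 1 or 2, and the difference was 0.89 when scaled to the spiked controls. The gene dek1, a calpain needed for epidermal identity, fell by 0.35 ± 0.10 (adjusted p = 0.0135). The signal of the knotted-type gene lg3 fell by 0.28 ± 0.10 (adjusted p = 0.0312), a call that ended in 8 of 19 alternatives, 5 of them with 1 Cat100-6 array left out. Its group means of 2.83 to 3.23 lay far below the array medians (7.13 to 7.27), so the signal was dim in all groups. Scaled to the spiked controls, which shifts every probe set alike, dek1 and lg3 had the opposite sign, at 0.14 and 0.22. Any decrease smaller than that shift changes sign in this way. Between the lines in control soil, 4 of the 11 were higher and 2 lower in S1587-17, where 23.2% of all probe sets passed as higher and 28.2% as lower. In acid soil 1 was higher and 1 lower, where 10.6% of all passed as higher and 13.3% as lower. The homeodomain gene ocl3 did not pass in Cat100-6 (0.15 ± 0.14), and was higher in S1587-17 than in Cat100-6 by 0.77 ± 0.14 in acid soil and 0.94 ± 0.14 in control soil (adjusted p = 0.00195 and 0.000221). The acid soil difference was 0.31 and did not pass when scaled to the spiked controls (adjusted p = 0.205). Its relative ocl4 read 6.86, 6.90 and 5.04 in S1587-17 and 5.19, 5.07 and 5.19 in Cat100-6 in control soil, a difference of 1.12 ± 0.40 (adjusted p = 0.0349). Its arrays overlapped through S1587-17 replicate 3, without which the difference was 1.73. The call ended in 7 of 19 alternatives (adjusted p up to 0.141), among them those without S1587-17 control soil replicate 1 (0.82) and replicate 2 (0.80). Lower in S1587-17 than in Cat100-6 was dek1, by -0.64 ± 0.10 in control soil and -0.38 ± 0.10 in acid soil (SE, limma adjusted p = 0.000391 and 0.0184). So was lg3 in control soil (-0.29 ± 0.10, adjusted p = 0.0268). The dek1 call in acid soil ended in 3 of 20 alternatives and that of lg3 in 7 of 19. The summed level of the list on the log2 scale was 11.18 to 11.31 and 11.05 to 11.54 in acid and control soil of S1587-17, and 11.05 to 11.31 and 10.89 to 10.93 in acid and control soil of Cat100-6.

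**Figure D3:**
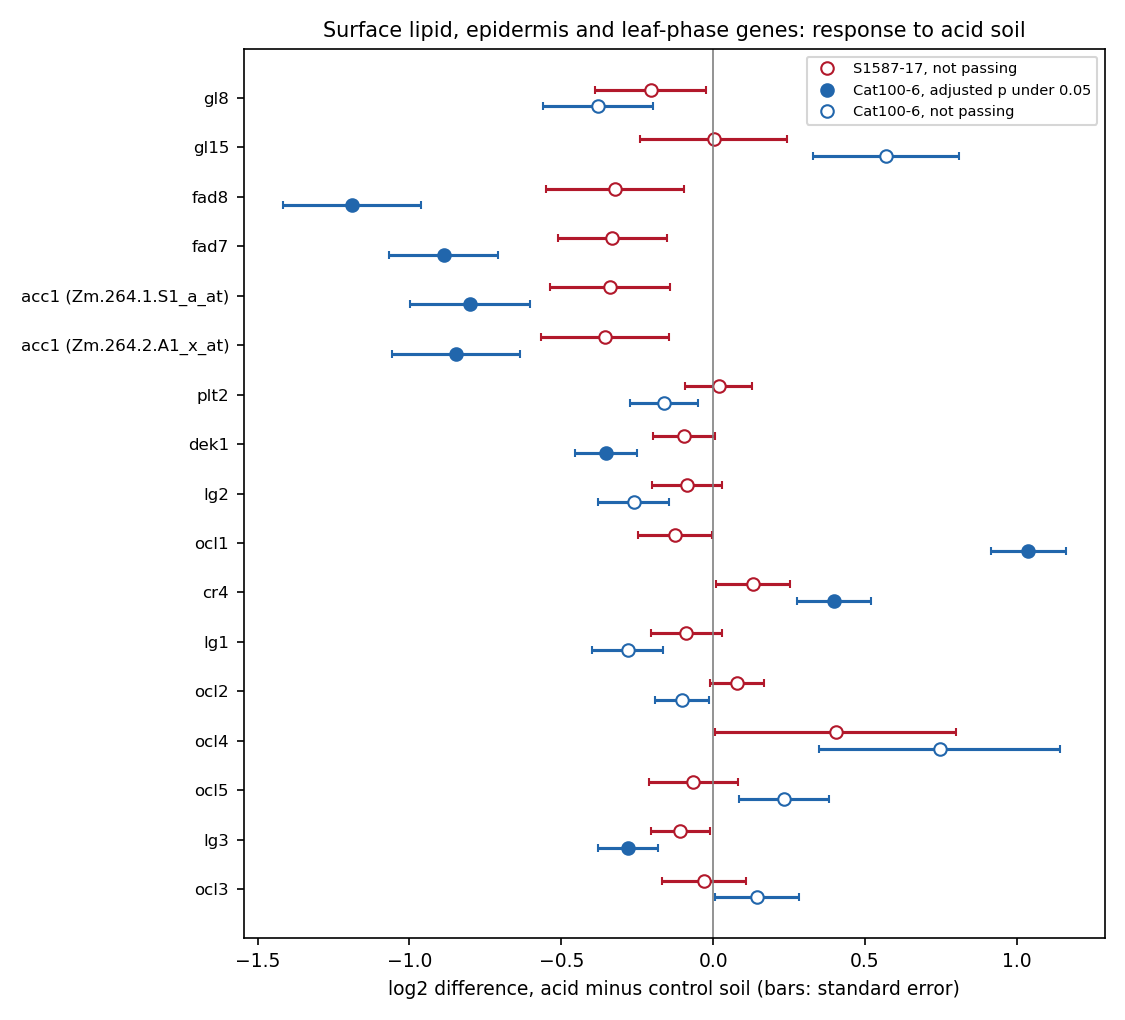
Log2 differences between acid and control soil (horizontal axis) of the surface lipid, epidermis and leaf-phase genes other than gl1 (rows), with standard errors as bars, for S1587-17 (red) and Cat100-6 (blue). Filled symbols passed an adjusted p of 0.05 in limma. Filled symbols occur for Cat100-6 alone, with ocl1 at 1.04 and fad8 at -1.19 the farthest from 0.

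Markers of leaf and root were read within each list, since the levels of different probe sets on an array cannot be set against each other, and they do not settle the labelled tissue. The root markers were 1 probe set, of the gene zrp4. It was lower in acid soil in Cat100-6 (-1.81 ± 0.21, SE, limma adjusted p = 0.000151), where 31.5% of all probe sets passed as lower. In S1587-17 it did not pass. The level of zrp4 was 5.63 to 5.73 in acid soil, against 5.36 to 6.07 in control soil in S1587-17, and 5.71 to 6.34 in acid soil, against 7.43 to 8.05 in control soil in Cat100-6. The leaf markers were 14 probe sets of 10 genes. In Cat100-6, 9 of the 14 were lower in acid soil and 1 was higher, beside 31.5% lower and 23.5% higher over all probe sets. Several of these calls, in both directions, were of the same gene, pdk1. In S1587-17, 0 of 14 passed in limma, beside 0% over all. The summed level of the leaf markers was 16.39 to 16.58 and 16.53 to 16.96 in acid and control soil of S1587-17, and 16.09 to 16.85 and 17.13 to 17.14 in acid and control soil of Cat100-6. The part of these markers in the values of gl1 was not tested.

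The genes whose pattern over the 12 arrays was most like that of gl1 were then named, by Pearson's r with the brightest probe set among 979 genes with a readable name. The closest was f3h, the flavanone 3-hydroxylase of flavonoid synthesis (r = 0.994). It read 10.38, 10.14 and 10.05 in acid soil, against 10.59, 10.46 and 11.23 in control soil in S1587-17. In Cat100-6 it read 8.81, 7.76 and 9.85 in acid soil, against 11.25, 11.35 and 11.26 in control soil, with replicate 2 lowest and replicate 3 highest in acid soil, as for gl1. With each group's mean subtracted r was still 0.985, and without S1587-17 control soil replicate 3 it was 0.998.

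Next came pdrp1, the regulatory protein of pyruvate phosphate dikinase (0.974), pOMT1 (0.970), cda2 (0.965), cda1 (0.955), ftr1, a ferredoxin-thioredoxin reductase (0.955), the aquaporin gene pip, also called pip1e (0.948), and eks1, a kaurene synthase of the gibberellin pathway (0.947). Most opposite were UGlcAE (-0.954), the expansin gene expA4 (-0.952) and AGP2, of ADP-glucose pyrophosphorylase (-0.932). The points share their arrays, scaling and the 4 group means, so that genes with a similar order of groups have a high r. At least 0.9 was reached by 2.31% of all other tested probe sets. Against the dimmest gl1 probe set 7 of these 8 genes were again among the closest 8, but against the _a_at probe set only 1 was, and f3h had r = 0.927. With group means subtracted 1 of the 8 was again among the closest 8, and 4 were with Spearman's rho and with scaling to the spiked controls.

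**Figure D4:**
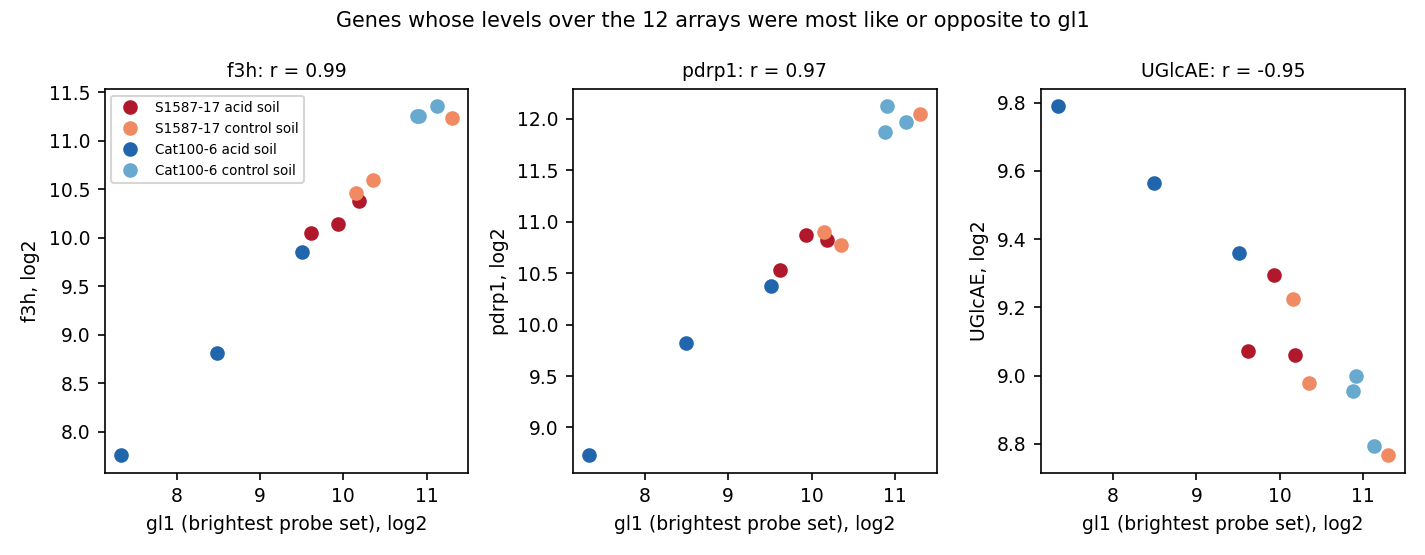
Log2 levels of f3h, pdrp1 and UGlcAE (vertical axes) against gl1 at its brightest probe set (horizontal axes), a point for each of the 12 arrays, coloured by group. The points of f3h lie along a line (r = 0.994), including the 3 spread arrays of Cat100-6 in acid soil.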

How the data were processed

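Expression levels were deposited on the log2 scale. They come from RMA, which background-corrects, normalizes and combines the probes of a set, per the submitters' processing notes. Its software, version and settings were not given in the sources used here. Array medians lay between 7.13 and 7.27. For arrays there is no depth of reads, and precision depends on the number of arrays. RMA values carry no detection calls and compress differences of dim probe sets.

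Of 17734 probe sets, 113 controls were left out. The platform table gave 1 gene symbol to 1452 of the rest, several to 1 and none to 16168, and 1377 were updated through the RefSeq table of the B73 NAM 5.0 assembly. No coordinates are given, because the array names no build.

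All 12 arrays were fitted with limma 3.58.1 (R 4.3.3), a mean per group, 8 residual degrees of freedom and eBayes. P-values were adjusted by Benjamini-Hochberg over 17621 probe sets (threshold 0.05). The procedure was tested on simulated data with independent noise. For the S1587-17 response it recovered 24% of simulated log2 changes of 0.5 and 74% of those of 1. A difference that did not pass there is therefore not shown to be absent. The changed probe sets were drawn at random, each with its own SD. The SDs of gl1 in the S1587-17 groups exceeded those of 91.5% to 98.0% of probe sets. The recovery given is therefore not that of gl1, which was not computed. Members and lists were chosen with earlier results of these data known. Every gl1 probe set and wax gene was named, up to 6 others per list by their p in the Cat100-6 response, any that passed in another comparison, and the 8 most and 3 least alike genes. A total of 3 list matches were left out because the symbol belongs to a gene of other function. Figures used matplotlib 3.10.9.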

Additional observations from a re-analysis of the deposited data

Results flagged for a closer look

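The homeodomain gene ocl1 differed between the lines in its response to acid soil, by the test of the difference itself: the S1587-17 response minus the Cat100-6 response was -1.16 ± 0.17 on the log2 scale (SE, limma adjusted p = 0.00328). Its response was -0.13 in S1587-17, where acid and control soil arrays overlapped, and 1.04 in Cat100-6, where 3 of 3 acid soil arrays lay above all control soil arrays. Over all probe sets, 14.7% passed limma for the difference of responses, in either direction, and 23.5% passed as higher in acid soil in Cat100-6. The limma adjusted p of the ocl1 difference of responses lay between 0.000270 and 0.0135 over its alternatives.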

How the results depend on the processing

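The S1587-17 response of gl1, the only one tested, stayed short of the threshold under all alternatives at all 3 probe sets. The other gl1 differences have no test, and their direction held under all alternatives at all 3 probe sets except for the line difference in control soil at the _a_at probe set, which lay between -0.018 (without S1587-17 control soil replicate 3) and 0.52 when single arrays were left out. When single arrays were left out, the response at the brightest probe set lay between -0.92 and -0.34 in S1587-17 and between -3.06 and -1.98 in Cat100-6. At that probe set the adjusted p in S1587-17 lay between 0.472 and 1.00 over all alternatives. The line difference lay between 0.91 and 2.00 in acid soil and between -0.72 and -0.15 in control soil, and the difference of responses between 1.28 and 2.37.

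Of the surface lipid list, 1 probe set was higher in acid soil in Cat100-6 with scaling to the spiked controls, with a fit of those 2 groups alone and with the replicate block (0 to 1 with an array left out), and 1 was lower with the spiked controls, 5 with a second quantile normalization and 6 with array medians subtracted, against 4. Between the lines in acid soil, 1 was higher in S1587-17 with array weights, whose estimation stopped before it converged, and 0 were lower with a second quantile normalization, with array medians subtracted and with the replicate block, 3 with the spiked controls and 0 to 2 with an array left out. In Cat100-6, dek1 (0.14) and lg3 (0.22) changed sign with the spiked controls, a scaling that shifts every probe set alike. Among named probe sets, 38 had r of at least 0.9 with gl1, 6 with the spiked controls and 34 to 60 with an array left out (60 without S1587-17 control soil replicate 1). The cause was not tested. The deviations of same-numbered arrays from their group means correlated above 0.1 in 5 of 18 pairs (from -0.29 to 0.68). Between Cat100-6 acid soil and S1587-17 control soil they correlated at 0.68 for replicate 2 and 0.67 for replicate 3, but at -0.16 for replicate 1. With 3 arrays per group, these values do not settle whether the replicate numbers pair the arrays. With the replicate number as a block, the S1587-17 response of gl1 was -0.69 (limma adjusted p = 0.807). The number of arrays limits the precision, and RMA compresses differences of dim probe sets.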

Other observations

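Over all 17618 tested probe sets other than those of gl1, 407 had r of at least 0.9 with the brightest gl1 probe set over the 12 arrays, and 193 had r of -0.9 or below. Most of them have no gene name here.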
